A study of Mus musculus with 4 samples.

Results

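The genes followed in mouse liver nuclei encode 6 enzymes that handle choline, betaine and the products of betaine use: Bhmt, Bhmt2, Dmgdh, Sardh, Chdh and Aldh7a1, taken by symbol from the 32285 genes counted. Single-nucleus RNA sequencing had been performed on 4 libraries of non-tumor liver, 2 labelled Brca1-WT and 2 labelled Brca1-KO, called WT and KO-labelled below. Every animal was male, had received the liver carcinogen diethylnitrosamine (DEN), 25 mg/kg, when 14 days old and was killed at 12 months, so the WT libraries are exposed controls and no unexposed liver was analysed here. The series title places the Brca1 change in the liver and names Bhmt. What drives the deletion, which exons it removes and how many animals made a library are unknown from the labels. The labels call the 2 libraries of each genotype biological replicates, and p-values for genotype measure the spread between them. P-values along the axis from portal tract to central vein measure how far the difference within a library varies between libraries.

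Choline is oxidised to betaine in liver mitochondria: choline dehydrogenase (Chdh) makes betaine aldehyde, and aldehyde dehydrogenases, among them Aldh7a1, make betaine. Betaine-homocysteine methyltransferase (Bhmt), an abundant enzyme of hepatocytes, moves a methyl group from betaine to homocysteine and so returns methionine and dimethylglycine. Bhmt2 is a paralog that uses S-methylmethionine in place of betaine. Dimethylglycine dehydrogenase (Dmgdh) and sarcosine dehydrogenase (Sardh) are mitochondrial flavoproteins that strip the remaining methyl groups and leave glycine.

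Between 4795 and 6970 nuclei per library were kept, from deposited totals of 36662067 to 45638888 unique molecular identifiers (UMIs, each standing for 1 captured transcript). Hepatocyte-like nuclei numbered 2792 and 4020 in the WT pair and 2573 and 4091 in the KO-labelled libraries, with median depths of 5949.5 to 9513 UMIs. Levels are given as CPM, the UMIs of a gene scaled to a total of 1000000 in each sum of nuclei. The summed level of 14 hepatocyte markers in those nuclei was 24153 to 33556 CPM. The library labelled Brca1-KO replicate 2 stood apart: 3 clusters held 89.6% of its hepatocyte-like nuclei and at most 4.13% of those of any other library. Brca1 itself stood at 13.4 and 12.4 CPM in the hepatocyte-like nuclei of the WT libraries and at 18.6 and 5.78 in the KO-labelled pair. These overlapping values do not check the genotype labels, since the kit tags transcript 3′ ends and the exons removed are unknown. Pairs of libraries shared 8 to 17 cell barcodes.

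Bhmt, Bhmt2 and Dmgdh lie side by side on chromosome 13, in that order, with Bhmt and Bhmt2 read from the minus strand and Dmgdh from the plus strand. Because their levels are compared below, the DNA before their start sites is shown, from RefSeq on the build GRCm38.p6. The first sequence is the 250 bases before the Bhmt start (chr13:93637759-93638008, minus strand), in which capitals mark AGGTCA, the half-site of many nuclear receptors, searched on both strands. The second is the whole 133-base interval between the starts of Bhmt2 and Dmgdh (chr13:93674303-93674435, minus strand, ending just before the Bhmt2 start), in which capitals mark GGGCGG, the GC box, searched on both strands.
Bhmt upstream: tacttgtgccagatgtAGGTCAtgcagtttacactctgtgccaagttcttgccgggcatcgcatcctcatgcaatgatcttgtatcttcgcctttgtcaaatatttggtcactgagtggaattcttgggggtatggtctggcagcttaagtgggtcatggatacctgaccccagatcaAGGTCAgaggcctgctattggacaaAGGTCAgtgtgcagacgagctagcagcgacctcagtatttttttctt
Bhmt2 to Dmgdh: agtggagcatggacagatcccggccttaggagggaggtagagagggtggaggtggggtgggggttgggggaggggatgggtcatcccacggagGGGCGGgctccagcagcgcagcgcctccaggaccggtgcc
AGGTCA occurred 3 times in the Bhmt window. Among 27025 gene windows of 250 bases, 13.8% held it at least once and 0.122% at least 3 times. It was not found between Bhmt2 and Dmgdh, nor in the 250 bases before either start. The interval between Bhmt2 and Dmgdh was 69.9% G and C, against 48% in the Bhmt window and a median of 52% over all windows of 250 bases. GGGCGG occurred once in it, and 27.9% of gene windows of 133 bases held that motif.

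In hepatocyte-like nuclei Bhmt was the member that differed most between the genotypes. It stood at 1925 and 1209.7 CPM in WT replicates 1 and 2, at 726 in KO-labelled replicate 1 and at 272 in replicate 2. The KO-labelled pair lay wholly below the WT pair, and within each genotype the libraries also lay far apart. Bhmt averaged 1568 ± 506 CPM in the WT pair and 499 ± 321 in the other (SD, n = 2 each), a ratio of 0.318. The fitted log2 difference, Brca1-KO minus Brca1-WT, was -1.62 (SE 0.53, 95% interval -2.98 to -0.26). It had an unadjusted p of 0.0281 and did not pass after adjustment over 15113 genes (edgeR adjusted p = 0.989).

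The paralog Bhmt2 and the dimethylglycine oxidase gene Dmgdh were lower in the KO-labelled libraries by a smaller step. Bhmt2 was counted at 306 and 254 CPM in the WT pair and at 188 and 161 in the KO-labelled pair. Dmgdh was counted at 520.2 and 415 against 311 and 310.3. The groups overlapped for neither gene. The log2 differences were -0.63 for Bhmt2 (SE 0.20, unadjusted p = 0.0263) and -0.54 for Dmgdh (SE 0.22, unadjusted p = 0.0605), and neither passed (edgeR adjusted p = 0.989 for both).

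Chdh and Sardh did not share that order, and Aldh7a1 did by a narrow margin. Chdh, which starts the pathway, stood at 84.7 and 159 CPM in the WT pair and at 143 and 179 in the KO-labelled pair, so WT replicate 1 was low and the groups overlapped. Aldh7a1, which makes betaine and also acts in lysine breakdown, stood at 256 and 306 against 246 and 222, so its groups did not overlap. Sardh, which acts after Dmgdh, stood at 203 and 309.7 against 302 and 284, again with WT replicate 1 alone on the low side. Their log2 differences were 0.45 (SE 0.36) for Chdh, -0.22 (SE 0.20) for Aldh7a1 and 0.24 (SE 0.27) for Sardh. These rested on single libraries. Without WT replicate 1 the Chdh difference was 0.067, that of Aldh7a1 -0.34 and that of Sardh -0.03. Without WT replicate 2 they were 0.999, -0.065 and 0.60, and without KO-labelled replicate 2 that of Chdh was 0.24.

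**Figure D1:**
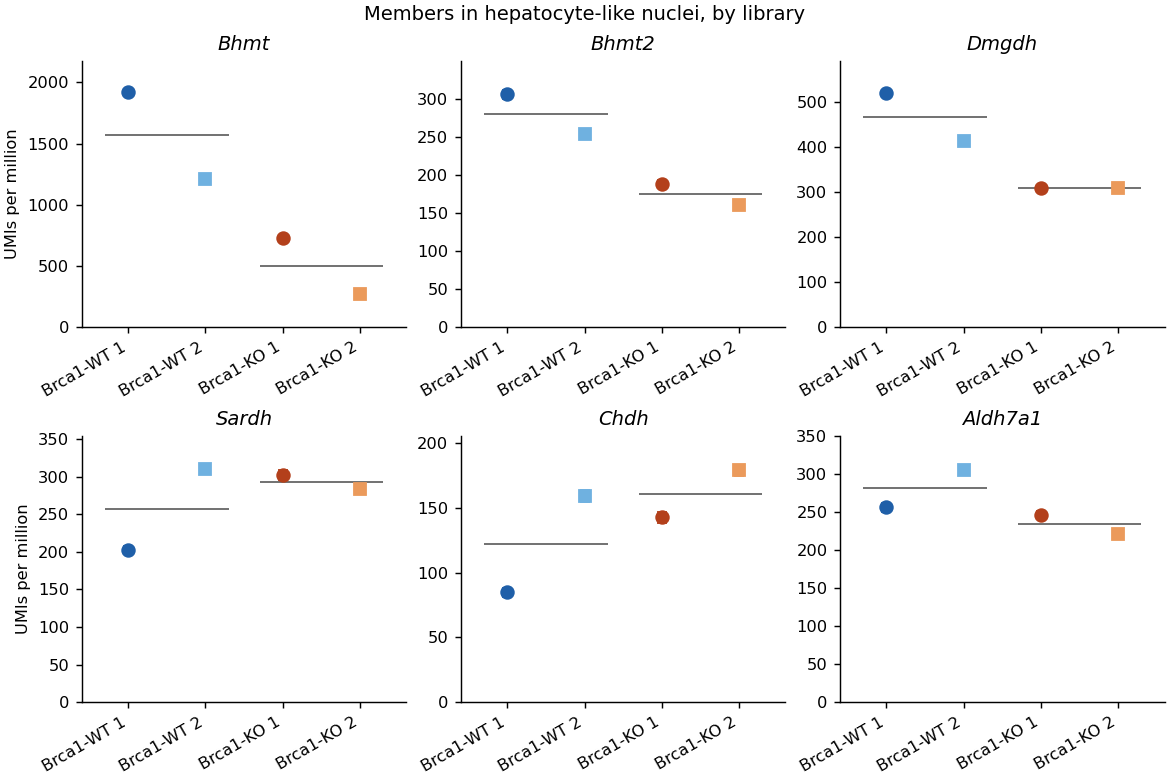
CPM of the 6 genes in hepatocyte-like nuclei, 1 point per library, with a horizontal line at each group mean; bars are exact Poisson 95% intervals and are mostly hidden by the points. Bhmt runs from 1925 in WT replicate 1 to 272 in KO-labelled replicate 2, and Chdh is lowest in WT replicate 1 at 84.7.

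None of the 6 members passed, and neither did any other gene (0 of 15113, 0%). An unadjusted p below 0.05 was seen in 502 genes, fewer than that threshold gives on average when no gene differs. DESeq2 called 23. In 4 of the 6 members the KO-labelled pair lay wholly below the WT pair, an order seen in 19.7% of all genes tested; the opposite order was seen in 11.5%, and 31.3% did not overlap in either direction. The median log2 difference of the members was -0.38, against -0.01 over all genes tested. Among 3711 genes with a mean of at least 50 CPM, 0.108% had a lower log2 difference than Bhmt, 1.97% than Bhmt2 and 2.80% than Dmgdh.

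The size of the Bhmt difference depended on the libraries included. Without KO-labelled replicate 2, which stood apart, the log2 difference was -1.09 (edgeR adjusted p = 0.999), and those of Bhmt2 and Dmgdh were -0.55 and -0.57. Without KO-labelled replicate 1 the Bhmt value was -2.42 (adjusted p = 0.105) and 29 genes passed. In the sum of all kept nuclei, where 0% of 17145 genes passed, the Bhmt difference was -1.46 (SE 0.48, adjusted p = 0.80). There, without KO-labelled replicate 1, 270 genes passed and Bhmt reached -2.21 (adjusted p = 0.046). Hepatocyte-like nuclei made up 2792 of 5843 and 4020 of 6970 kept nuclei in the WT pair, and 2573 of 4795 and 4091 of 6260 in the KO-labelled pair.

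Gm15622, a transcript annotated on the opposite strand within Bhmt, was counted at 194 and 114 CPM in the WT pair and at 79.0 and 32.2 in the KO-labelled pair. Its log2 difference was -1.44 (SE 0.48, edgeR adjusted p = 0.989) and it took the 4 libraries in the same order as Bhmt. No label says if counting used strand, so it is not known here if reads of Bhmt and Gm15622 were kept apart.

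Ratios within a library set the members against each other without reference to the total. The UMI ratio of Bhmt to Bhmt2 was 6.30 and 4.77 in the WT pair and 3.86 and 1.69 in the KO-labelled pair. The ratio of Bhmt to Dmgdh was 3.70 and 2.92 against 2.34 and 0.878. Both ratios were lower in both KO-labelled libraries (exact permutation test, 2-sided p = 0.333, the smallest that 2 against 2 allows). The ratio of Bhmt2 to Dmgdh, the pair with back-to-back starts shown above, was 0.588, 0.611, 0.606 and 0.519, and its groups overlapped.

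The share of hepatocyte-like nuclei with a Bhmt UMI was lower in the KO-labelled libraries when each nucleus was thinned to 1000 UMIs. It was 72.1% (exact Clopper-Pearson 95% interval 70.4 to 73.8) and 60.8% (59.3 to 62.3) in the WT libraries, 45.2% (43.3 to 47.2) in KO-labelled replicate 1 and 21.2% (19.95 to 22.5) in replicate 2. Before thinning the 4 shares were 95.4%, 92.7%, 91.4% and 65.3%. The thinned means were 66.5% and 33.2%, and the groups did not overlap (exact permutation test, 2-sided p = 0.333). Endothelial-like nuclei, which should lack Bhmt, had a UMI in 26.8% and 20.5% of WT nuclei and in 13.5% and 9.22% of KO-labelled nuclei at the same thinned depth (42.9%, 31.6%, 20.4% and 14.7% before thinning), with median depths of 1255 to 1851 UMIs; free RNA in the droplets can give such a level. Between 7 and 33 hepatocyte-like nuclei per library were too shallow and were left out, and 89 to 374 endothelial-like nuclei. Thinned shares averaged 24.6% against 16.4% for Bhmt2 and 34.8% against 25.4% for Dmgdh, with no overlap. Those of Sardh averaged 21.7% against 25.3%, those of Chdh 11.0% against 14.3%, both with overlap. Those of Aldh7a1 averaged 24.6% against 19.7%, with none.

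One small set of hepatocyte-like nuclei held little Bhmt in libraries that were otherwise rich in it. A cluster led by Cyp2b9, a cytochrome P450, held 150 nuclei of WT replicate 1 and 22 of WT replicate 2, and 0 and 1 of the KO-labelled libraries. No member was among the 2000 variable genes used to build the clusters. In replicate 1 this cluster had 187 Bhmt CPM (exact Poisson 95% interval 164 to 213), against 2002 (1986 to 2019) in the other hepatocyte-like nuclei of the same library, a ratio of 0.0935. In replicate 2 it had 117 (72.3 to 179) against 1216 (1204 to 1229), a ratio of 0.0960. The intervals cover counting error only, and nuclei of 1 library are not replicates, so no test was made.

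The other members were also lower in that cluster, by less. In WT replicate 1 its level was 0.319 times that of the other hepatocyte-like nuclei for Dmgdh, 0.465 for Aldh7a1, 0.488 for Bhmt2, 0.542 for Chdh and 0.751 for Sardh. In replicate 2, with 22 nuclei, the ratios were 0.213 for Dmgdh, 0.253 for Aldh7a1, 0.634 for Bhmt2, 0.699 for Sardh and 0.908 for Chdh. The summed hepatocyte markers stood at 23636 CPM in the cluster against 33993 outside it in replicate 1, and at 32827 against 26912 in replicate 2. Gpc3, a proteoglycan of fetal liver, stood at 443 CPM in the cluster and 0.569 outside it in replicate 1. Without this cluster the genotype difference of Bhmt in hepatocyte-like nuclei was -1.66 on the log2 scale (edgeR adjusted p = 0.995), an alternative chosen after seeing the data.

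**Figure D2:**
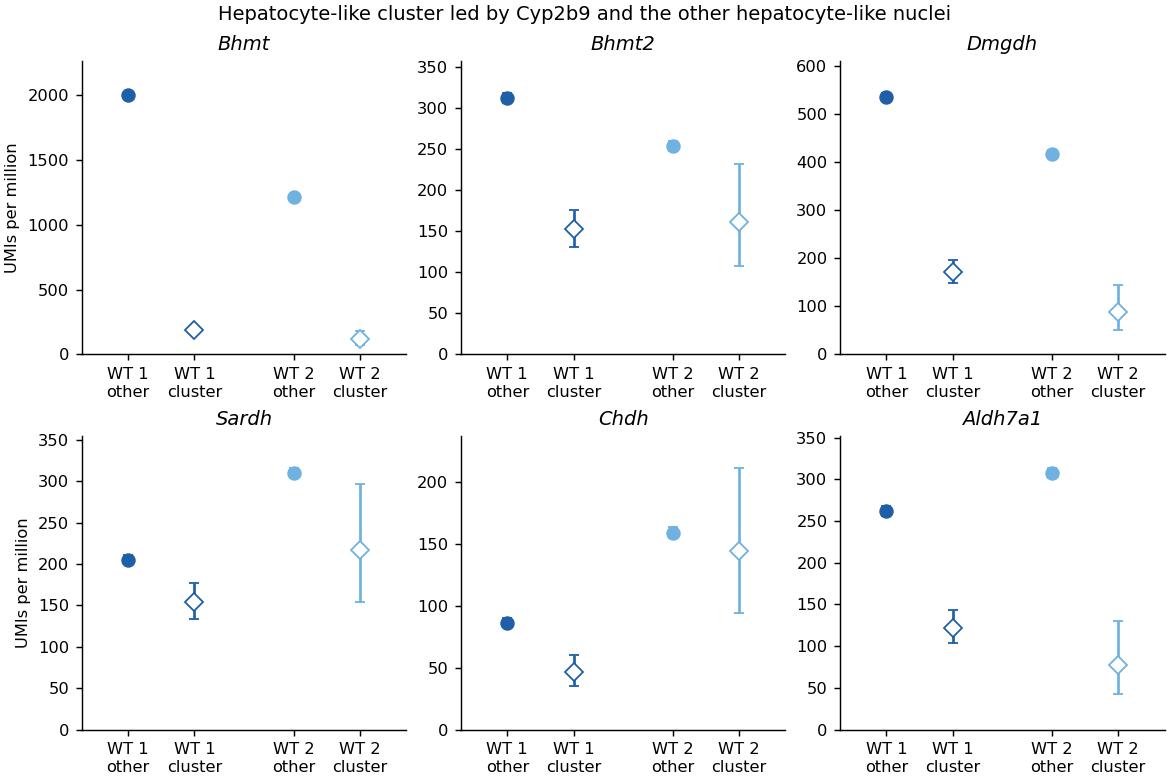
CPM of the 6 genes in WT replicates 1 and 2, for the cluster led by Cyp2b9 (open diamonds, 150 and 22 nuclei) and the other hepatocyte-like nuclei of the same library (filled circles); bars are exact Poisson 95% intervals. Bhmt is at 187 in the cluster and at 2002 outside it in replicate 1.

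Along the axis from the portal tract to the central vein, Bhmt did not run in 1 direction in the 4 libraries. Hepatocyte-like nuclei of each library were ordered by landmark genes that exclude the members and cut into 5 zones of equal size, from zone 1 (periportal, near the portal tract) to zone 5 (perivenous, near the central vein). Bhmt ran from 2141 CPM in zone 1 to 1613 in zone 5 of WT replicate 1, and from 1248 to 1208 in WT replicate 2. It ran from 734 to 750 in KO-labelled replicate 1 and from 239.7 to 335 in replicate 2. The ends differed by -0.41 and -0.05 on the log2 scale in the WT pair and by 0.03 and 0.48 in the KO-labelled pair. The fitted perivenous minus periportal difference, an average over libraries of opposite sign, was 0.01 (SE 0.14, 95% interval -0.34 to 0.37, edgeR adjusted p = 0.971).

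Chdh was higher toward the central vein in each library. From zone 1 to zone 5 it went from 73.2 to 92.3 CPM in WT replicate 1, from 137 to 183 in WT replicate 2, from 131 to 164 in KO-labelled replicate 1 and from 163 to 194 in replicate 2. Zone 5 was the highest in 4 of 4 libraries. Chdh rose by 0.33 on the log2 scale (SE 0.058, edgeR adjusted p = 0.00123), and the call was kept when each library was left out in turn. With nuclei thinned to 2000 UMIs, where 1750 genes passed in place of 3100, the Chdh difference was 0.20 and did not pass (adjusted p = 0.143). Median depths of the zones were 5290.5 to 10986 UMIs, and the part of depth in this gradient was not tested beyond that thinning.

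Bhmt2 fell by 0.20 on the log2 scale from zone 1 to zone 5 (SE 0.057, edgeR adjusted p = 0.0206) and was lower in zone 5 in 4 of 4 libraries. That call was lost in 3 of the 4 fits that left out 1 library: adjusted p was 0.0735 without WT replicate 2, 0.0672 without KO-labelled replicate 1 and 0.0618 without replicate 2. It was also lost with thinning to 2000 UMIs (0.188) and with DESeq2 (0.0984). The differences of the other 3 were -0.19 for Sardh (adjusted p = 0.0527), -0.10 for Aldh7a1 (0.295) and 0.04 for Dmgdh (0.752). Sardh lay at the threshold and passed in 5 of 11 alternatives, with adjusted p from 0.022 to 0.238.

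So 2 of the 6 members passed, where 26.3% of 11777 genes did (12.5% higher toward the central vein and 13.8% lower). Of the genes kept aside to check the order, the perivenous Oat, Slc13a3 and Cyp2c29 passed with log2 differences of 3.55, 6.08 and 5.09. The periportal Ass1 and Pck1 were at -0.96 and -0.63 and did not pass (edgeR adjusted p = 0.0611 and 0.177). Both were lower in zone 5 in 4 of 4 libraries. Aldh1b1, the other periportal gene kept aside, was at 0.170 to 0.709 CPM in hepatocyte-like nuclei and was not tested along the axis. So no periportal gene kept aside passed. Between 4.09% and 9.51% of nuclei lay within 0.1 score units of a border between zones.

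**Figure D3:**
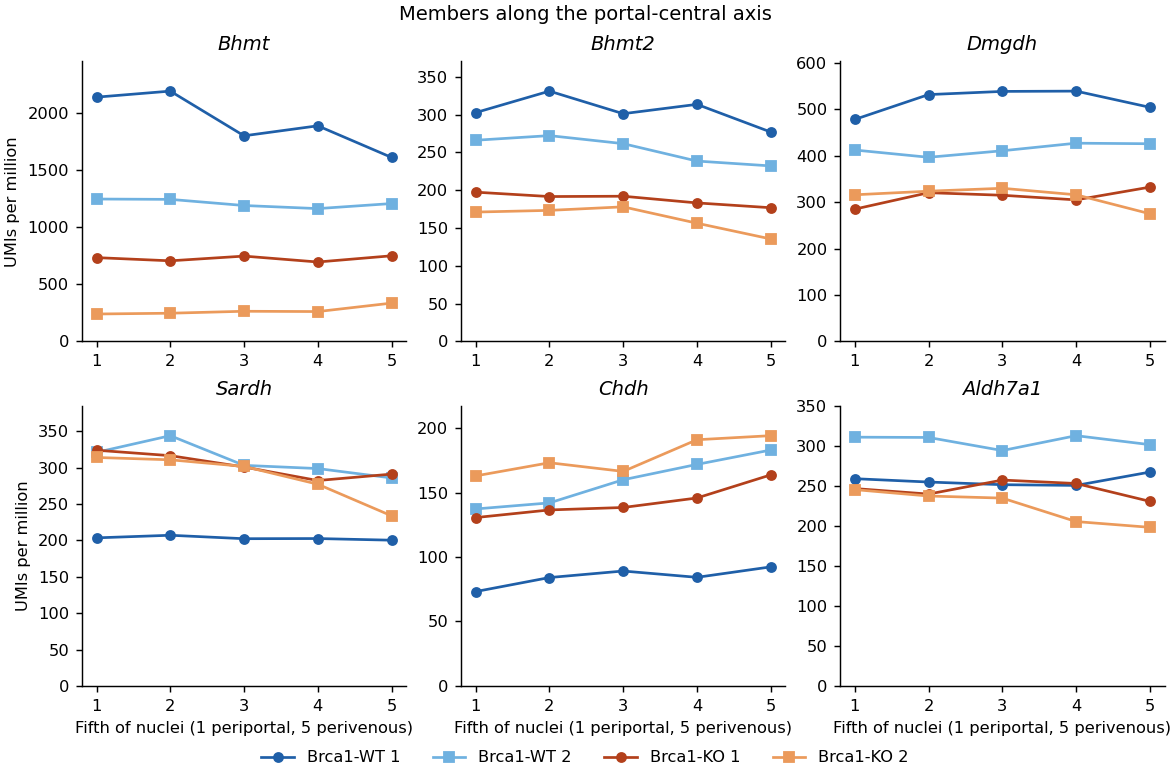
CPM of the 6 genes in 5 zones of hepatocyte-like nuclei ordered from periportal (1) to perivenous (5), 1 line per library. The Bhmt lines keep the order of the libraries in every zone, and each Chdh line is highest in zone 5, at 92.3, 183, 164 and 194.

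For Bhmt, Bhmt2 and Dmgdh the genotype order held in each zone. The ratio of the mean in KO-labelled libraries to that in WT libraries for Bhmt was 0.287, 0.277, 0.338, 0.313 and 0.385 from zone 1 to zone 5. For Bhmt2 it lay between 0.605 and 0.657, and for Dmgdh between 0.642 and 0.694. The groups overlapped in no zone for these 3 genes, and for Aldh7a1 in zones 3 and 4 only. For Sardh and Chdh they overlapped in each zone. The zones are cuts of the same libraries, so they are not separate evidence for the order of the whole sums. In the whole sums 31.3% of all genes tested did not overlap, and the share per zone was not computed. A test of whether the axis differed with genotype called none of the 6 members and no other gene (0% of 11777). There 396 genes had an unadjusted p below 0.05, also fewer than on average when no gene differs, and DESeq2 called 1. The interaction of Bhmt was 0.49 on the log2 scale (SE 0.19, unadjusted p = 0.032, edgeR adjusted p = 0.9999).

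Among the 7 classes with at least 30 nuclei in every library, each member was highest in hepatocyte-like nuclei in each of the 4 libraries. In smaller classes some values were higher: in the 32 neutrophil-like nuclei of WT replicate 1, whose summed hepatocyte markers were at 27568 CPM, Bhmt2 stood at 379 CPM and Dmgdh at 613. The 6 other classes with at least 30 nuclei in every library gave 144 values. There a member stood at 0 to 60.1% of its level in the hepatocyte-like nuclei of the same library, with a median of 20.5%. The summed hepatocyte markers stood at 15.9% to 53.7% in the same classes. The 0 was Chdh in monocyte- or dendritic-like nuclei of WT replicate 1, where a count of 0 allows up to 16.9 CPM, taken as 3 UMIs of the total.

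For Bhmt the means over the 4 libraries ran in the order hepatocyte-like (1033 ± 707 CPM, SD, n = 4), B-like (386 ± 208), T- or NK-like (363 ± 188), endothelial-like (214 ± 85.1), monocyte- or dendritic-like (189 ± 113), Kupffer- or macrophage-like (178 ± 88.3) and stellate- or mesenchymal-like (145 ± 72.3). Neighbours in that order overlapped in range, and beyond hepatocytes the only step seen in 4 of 4 libraries was from Kupffer- or macrophage-like down to stellate- or mesenchymal-like nuclei. For Bhmt2, Dmgdh, Sardh, Chdh and Aldh7a1 the hepatocyte range did not overlap the next class, and all lower neighbours overlapped. B-like nuclei came second for each member except Dmgdh, where T- or NK-like nuclei did, at 149 ± 32.1 against 146 ± 12.2. B-like and T- or NK-like nuclei also held the highest summed hepatocyte markers of the other classes in each library, 8512 to 13102 CPM.

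**Figure D4:**
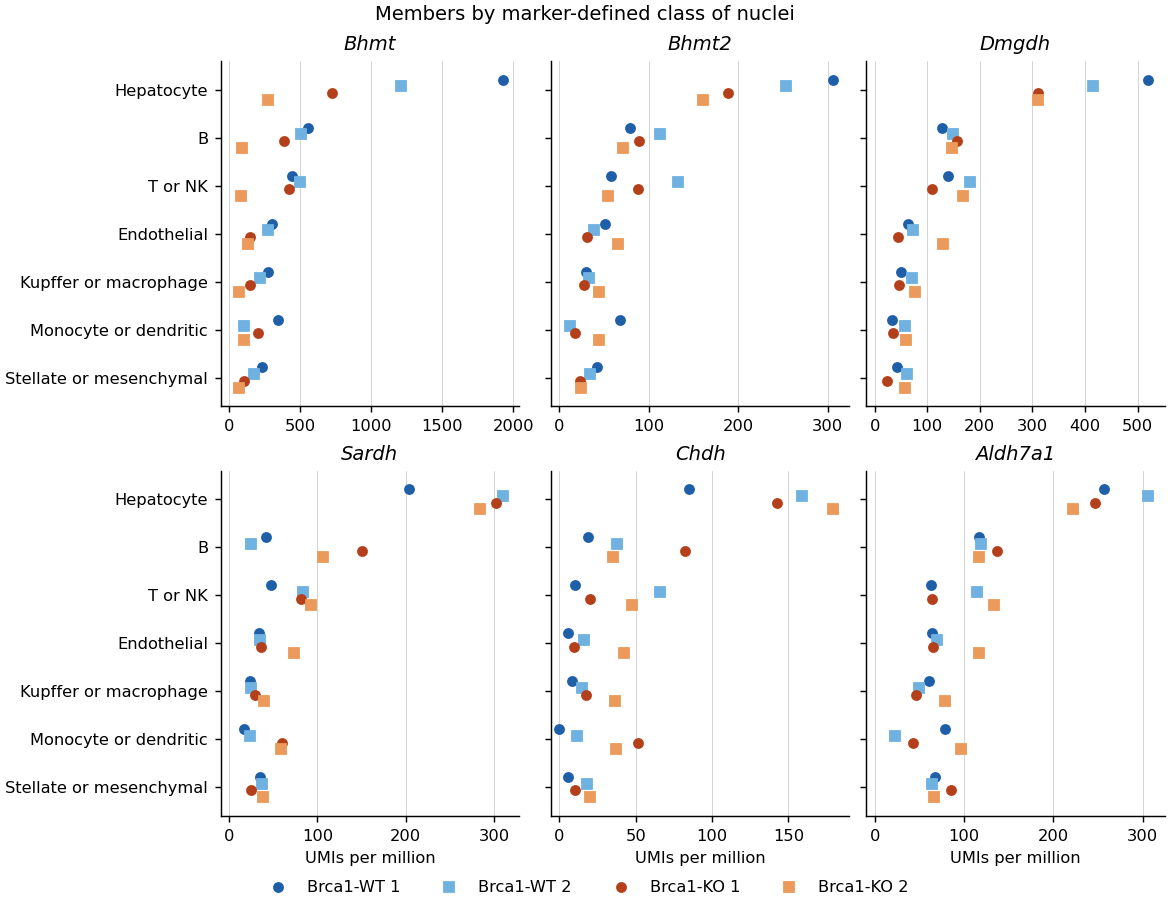
CPM of the 6 genes in 7 classes of nuclei named from markers, 1 point per library. In each panel the hepatocyte-like points lie to the right of every other point of the same library; Bhmt in endothelial-like nuclei is at 299.6, 274, 149 and 133.

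To set these counts beside hepatocyte RNA, each member was divided by the summed hepatocyte markers of the class. That ratio was divided by the same ratio in hepatocyte-like nuclei, so that 1 is the ratio inside those nuclei. The ratio in free RNA was not measured and may differ from 1. Of the 144 values, 61 had an exact Poisson 95% interval below 1 and 5 had one above 1. The intervals take the count predicted by the markers as fixed and were not adjusted for 144 values. A few of them would therefore lie above 1 from counting error alone. Of the 5, 3 were Aldh7a1 in stellate- or mesenchymal-like nuclei, which had ratios of 1.53, 1.08, 2.20 and 1.35 in the order WT replicates 1 and 2 and KO-labelled replicates 1 and 2. There 86, 85, 82 and 89 Aldh7a1 UMIs were counted where the markers predict 56.2, 78.7, 37.3 and 65.8. The other 2 were Bhmt in KO-labelled replicate 1, at 1.81 in T- or NK-like nuclei and 1.57 in monocyte- or dendritic-like nuclei. Chdh was among the members low against the markers: its ratio was 0.29 to 0.53 in endothelial-like nuclei and 0.38 to 0.59 in stellate- or mesenchymal-like nuclei, with intervals below 1 in 4 of 4 libraries in both.

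**Figure D5:**
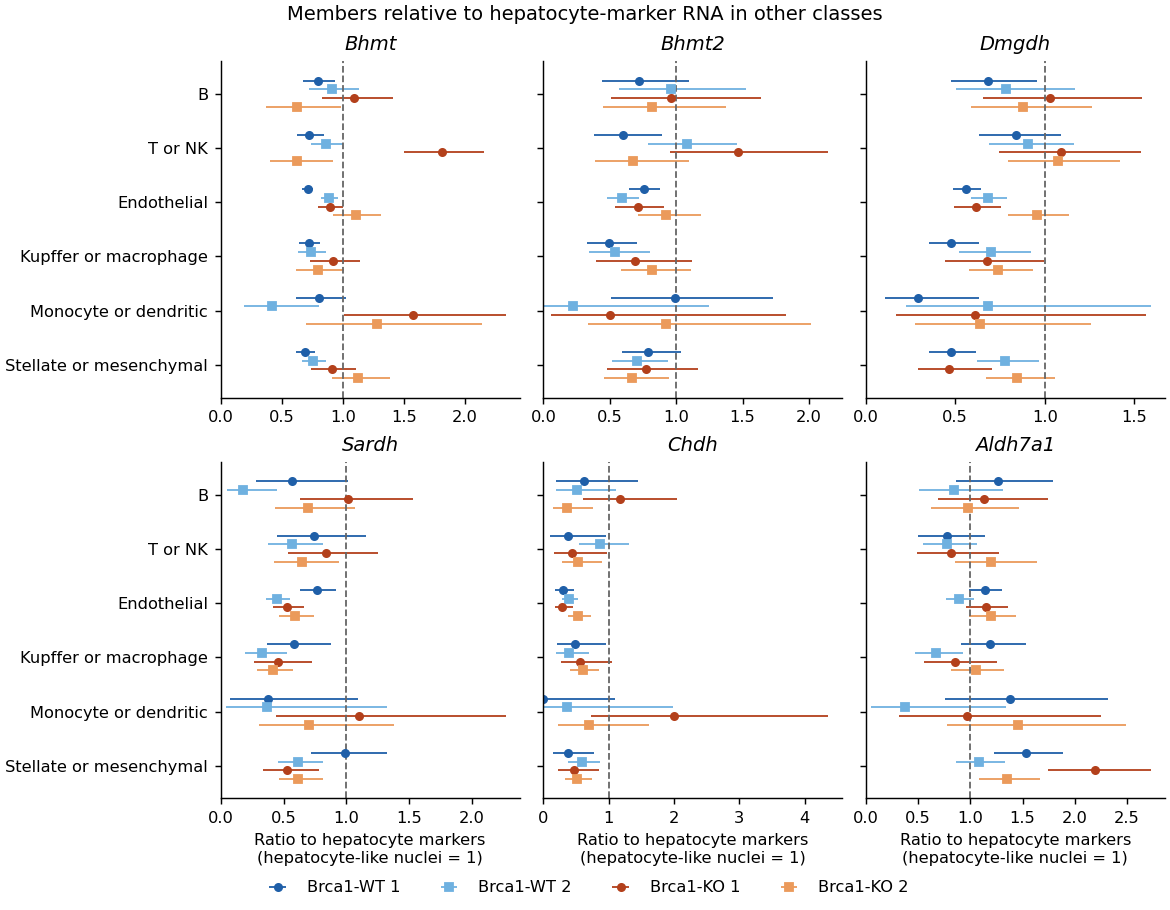
Ratio of each gene to the summed hepatocyte markers in 6 other classes, divided by the same ratio in hepatocyte-like nuclei of the same library (dashed line at 1), with exact Poisson 95% intervals. Aldh7a1 in stellate- or mesenchymal-like nuclei lies at 1.08 to 2.20, and Chdh in endothelial-like nuclei at 0.29 to 0.53.

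In the 6 other classes the log2 difference of Bhmt with all 4 libraries was below 0. It was the lowest of the members tested, but in monocyte- or dendritic-like nuclei Bhmt was the only member tested. Chdh was not tested in B-like nuclei. In endothelial-like nuclei Bhmt stood at 299.6 and 274 CPM in the WT pair and at 149 and 133 in the KO-labelled pair, a log2 difference of -0.95 (SE 0.18, unadjusted p = 0.00182, edgeR adjusted p = 0.99998). In stellate- or mesenchymal-like nuclei it stood at 229 and 177 against 105 and 67.6 (-1.21, SE 0.24). The difference was -1.16 in B-like, -1.15 in Kupffer- or macrophage-like, -0.91 in T- or NK-like and -0.62 in monocyte- or dendritic-like nuclei. Without KO-labelled replicate 2 it was -0.47 in B-like, -0.74 in Kupffer- or macrophage-like, -0.18 in T- or NK-like and -0.27 in monocyte- or dendritic-like nuclei, and in the last of these it turned to 0.58 without WT replicate 1. Bhmt in hepatocyte-like nuclei of the same libraries had the same direction, and the part of free hepatocyte RNA in these values was not tested.

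With all 4 libraries no member passed in any of these classes, where 0% of genes passed in 5 of the 6 and 0.0308% (1 of 3245) in monocyte- or dendritic-like nuclei. KO-labelled replicate 2, which stood apart, is the only library of its group when KO-labelled replicate 1 is left out. Bhmt log2 differences were then -2.44 in B-like, -1.01 in endothelial-like and -1.64 in Kupffer- or macrophage-like nuclei. They were -1.51 in stellate- or mesenchymal-like and -2.38 in T- or NK-like nuclei. Dmgdh, Sardh and Aldh7a1 then differed in the other direction in endothelial-like nuclei, at 1.04, 1.20 and 0.92. Without KO-labelled replicate 2, Bhmt was at -0.92 in stellate- or mesenchymal-like nuclei. Sardh in B-like nuclei, singled out after its values were seen, was at 41.6 and 25.0 CPM against 150.4 and 106, a log2 difference of 1.90 (SE 0.43, edgeR adjusted p = 0.508). These levels rest on 11 and 4 Sardh UMIs against 22 and 21. Relative to the hepatocyte markers, scaled as above, Sardh was at 0.57 and 0.18 against 1.01 and 0.70.

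Rank correlations between members per nucleus were small. Over 15 pairs and 4 libraries, Spearman's rank correlation in hepatocyte-like nuclei thinned to 2000 UMIs ran from -0.029 to 0.128, and within zones of the axis from -0.030 to 0.126. The 2 values above 0.1 were both in WT replicate 1. The coefficient was, for Bhmt with Dmgdh, 0.128, 0.071, 0.051 and 0.067 in the order of libraries used above, and for Bhmt with Bhmt2 0.109, 0.063, 0.052 and 0.007. Without the cluster led by Cyp2b9 the values of WT replicate 1 were 0.071 and 0.082. Nuclei of a library share its free RNA, and correlations of this size in sparse counts are a description. The thinned counts of the members other than Bhmt varied little beyond counting noise. Such counts can show little correlation, so values near 0 do not show that the transcripts vary independently.

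Bhmt counts varied beyond counting noise more than those of the other members. The variance of the thinned count divided by its mean is 1 for counting noise alone. It was 2.72 and 2.25 in the WT pair and 1.93 and 1.70 in the KO-labelled pair, against 0.99 to 1.23 for the other members. At equal relative spread this value rises with the mean count, which for Bhmt was 3.73, 2.37, 1.43 and 0.54 in the same order. Its fall across the libraries therefore cannot be read as a fall in relative spread. In KO-labelled replicate 2 Dmgdh had a similar mean, 0.60, and a value of 1.10. Nuclei without a Bhmt UMI made up 14.3%, 21.7%, 35.1% and 65.8% in the 4 libraries, where a Poisson count of the same mean gives 2.40%, 9.37%, 24.0% and 58.1%. The cluster led by Cyp2b9 held part of this excess in WT replicate 1, where 76.4% of its nuclei had no Bhmt UMI and 10.8% of the others had none.

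Across 20 sums, 5 zones in each of 4 libraries, the genes whose log2 level ran most like that of Bhmt among 5942 genes were Phc2 (Pearson's r = 0.974), Zyg11a (0.971), Ehhadh (0.969), Cntrl (0.968) and Rabl3 (0.963). Bhmt2 ranked 50th in that order (0.912) and Dmgdh 214th (0.829). Among the 3 genes most like each other member were Angptl4, Fmo4 and Etfdh for Bhmt2, Sntg2, Rbm39 and Masp1 for Dmgdh, Flrt1, Agt and Macrod1 for Sardh, Zfp871 and Ip6k2 for Chdh, and Chd3, Acadvl and Apoa1 for Aldh7a1. Dmgdh ranked 7th for Bhmt2 and Bhmt2 6th for Dmgdh, with r = 0.931. Chdh ran against Bhmt (r = -0.75), Bhmt2 (-0.79) and Dmgdh (-0.74). The 5 sums of a library share it, so these values mostly follow the order of 4 libraries.

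The enzymes next to the members were read from fixed lists. Of 11 genes that handle betaine aldehyde, electrons and one-carbon units beside the members, 4 were higher and 7 lower in the KO-labelled libraries, none passed, and the median log2 difference was -0.10. The 3 of smallest p were Etfdh, which takes the electrons that Dmgdh and Sardh release (152 and 126 CPM against 100.5 and 79.5, log2 difference -0.58), Aldh9a1, a second betaine aldehyde dehydrogenase (69.9 and 76.2 against 56.4 and 47.2, -0.45), and Dld (25.6 and 25.8 against 23.5 and 18.8, -0.23). Along the axis 7 of the 11 fell toward the central vein and none rose (over all genes tested, 12.5% rose and 13.8% fell). Gldc, of the glycine cleavage system, fell by 5.14 on the log2 scale, Etfb, which carries electrons to Etfdh, by 0.42 and Shmt1, a serine hydroxymethyltransferase, by 0.39.

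Of 21 genes of choline uptake and phospholipid use tested for genotype, 9 were higher and 12 lower, none passed, and the median was -0.10. Chka, the first kinase of phosphatidylcholine synthesis, stood at 181 and 164 CPM against 272 and 198, and Chkb, the second choline kinase, at 86.1 and 92.1 against 72.8 and 69.3. Gdpd1 was near the detection limit, at 2.52 and 0.912 against 0.925 and 0.309. Along the axis 7 of 19 rose toward the central vein and 4 fell, beside 12.5% and 13.8% of all genes tested. Among those that rose were Gpcpd1, which releases choline from glycerophosphocholine (1.124), and Chpt1, a choline phosphotransferase (0.85).

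Of 12 genes on the homocysteine and methionine side, 6 were higher and 6 lower, none passed, and the median was -0.06. Ahcyl2 stood at 125 and 141 CPM against 178 and 157, Mat2a, a methionine adenosyltransferase, at 66.1 and 72.1 against 81.7 and 89.5, and Cth, which splits cystathionine, at 561 and 357 against 461 and 179.9. Along the axis 1 of 12 rose and 3 fell, beside 12.5% and 13.8% of all genes tested. Ahcyl1 rose by 0.30 on the log2 scale, while Cbs, which commits homocysteine to cysteine, fell by 0.53 and Gnmt, a glycine methyltransferase, by 0.22. Ahcy, outside the rule for named genes, also fell, by 0.23.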

How the data were processed

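Single-nucleus RNA was counted in 4 libraries of mouse liver. The deposited values are unnormalized UMI counts of each gene in each barcode. Per the file headers the authors ran Cell Ranger 6.0.0. The submitters' processing notes name GRCh38, a human build, while the gene identifiers are mouse, so the mouse build is unknown here, as are strand and the use of intronic reads. The labels name a 10x 3′ v1 kit.

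Nuclei with at least 500 genes and at most 5% mitochondrial UMIs were kept, doublets called by Scrublet (scanpy 1.11.5, expected rate 0.06) were removed, and nuclei were clustered without batch correction (2000 variable genes, 30 components, 15 neighbours, Leiden resolution 1, 22 clusters). Classes were named from markers: at least 3 detected in 10% of nuclei and a score 1.5 times the next class. Classes with under 30 nuclei in a library, and a cluster of 53 nuclei with cholangiocyte markers, are not reported. UMIs were summed per library and class, or per zone (5 of equal size) of hepatocyte-like nuclei with at least 1000 UMIs, ordered by 11 central minus 9 portal landmarks. Sums were fitted with edgeR 4.0.16 (quasi-likelihood, TMM, filterByExpr, Benjamini-Hochberg over all genes tested, threshold 0.05), with library as a block along the axis, and with DESeq2 1.42.0 as an alternative. Levels are CPM, the UMIs of a gene scaled to 1000000. Promoters came from RefSeq on GRCm38.p6: 5 of the 6 members matched, and no protein sequence was used here. The fits were tested on simulated data.

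The members and gene lists were chosen with earlier results of these data known, so their directions are not independent evidence. Named genes are the members, per list the 3 of smallest p for genotype and along the axis, and per member the 5 (Bhmt) or 3 genes of most similar level at a mean of at least 20 CPM, leaving out unnamed models. A few genes that this rule names are not reported here. Replicate numbers are shared by the genotypes, but the labels do not say that a number marks a shared litter, batch or day. The libraries were therefore not paired in the main fits. The correlation of deviations was -0.08. With 2 libraries per genotype this is 1 contrast, so it cannot decide whether the numbers pair the libraries.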

Additional observations from a re-analysis of the deposited data

Results flagged for a closer look

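The perivenous minus periportal difference of Bhmt had opposite signs in the 2 genotypes. Its log2 value was -0.41 and -0.05 in WT replicates 1 and 2, and 0.03 and 0.48 in the KO-labelled libraries replicates 1 and 2. In each genotype 1 library was near 0. The interaction was 0.49 (SE 0.19, unadjusted p = 0.032) and did not pass after adjustment (edgeR adjusted p = 0.9999). Leaving out each library in turn gave 0.26 to 0.74.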

How the results depend on the processing

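Of 420 alternative values for 60 results on members, 364 kept their direction and side of the threshold, 6 lost and 15 gained a call, and 35 changed sign. In hepatocyte-like nuclei Bhmt stayed between -2.42 and -1.09 over 14 alternatives (adjusted p from 0.105 to 0.9999), and Bhmt2, Dmgdh, Chdh and Aldh7a1 kept their sign. With a replicate block Bhmt was at -1.73 (edgeR adjusted p = 0.999) and 0 genes passed there, 0 passed in monocyte- or dendritic-like nuclei, and Chdh in T- or NK-like nuclei was at 0.0066. DESeq2 called 23 genes in hepatocyte-like nuclei, 22 in all nuclei and 1 for the interaction, and no filter on low counts gave 2 in hepatocyte-like nuclei. Thinning to 2000 UMIs, which leaves fewer counts, gave 1750 genes along the axis, Bhmt at -0.10 and an interaction of 0.0136 for Chdh. Portal landmarks alone put Bhmt at -0.0026 and Dmgdh at -0.0139 along the axis.

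Leaving out 1 library at a time left 0 to 29 genes called in hepatocyte-like nuclei, 0 to 270 in all nuclei, 2 to 130 in B-like, 0 to 606 in endothelial-like, 1 to 131 in Kupffer- or macrophage-like, 1 to 40 in monocyte- or dendritic-like, 0 to 425 in stellate- or mesenchymal-like and 0 to 148 in T- or NK-like nuclei, and 0 to 34 for the interaction. The highest counts in these classes came without KO-labelled replicate 1. Over the fits that left out each library in turn, the genotype difference changed sign for several members, and the ranges below cover all these fits. It did so for Sardh in hepatocyte-like nuclei (-0.033 to 0.60) and Aldh7a1 in all nuclei (-0.21 to 0.12). The same held for Bhmt2 in B-like nuclei (-0.45 to 0.051) and Bhmt in monocyte- or dendritic-like nuclei (-1.18 to 0.58). In endothelial-like nuclei it ran from -0.50 to 0.66 for Bhmt2, -0.60 to 1.04 for Dmgdh and -0.086 to 2.25 for Chdh. In Kupffer- or macrophage-like nuclei it ran from -0.12 to 0.61 for Bhmt2, -0.34 to 0.49 for Dmgdh and -0.23 to 0.62 for Aldh7a1. In stellate- or mesenchymal-like nuclei it ran from -1.16 to 0.20 for Dmgdh, -0.48 to 0.18 for Sardh and -0.17 to 1.57 for Chdh. In T- or NK-like nuclei it ran from -0.89 to 0.34 for Bhmt2, -0.56 to 0.16 for Dmgdh, -0.94 to 1.78 for Chdh and -0.46 to 0.71 for Aldh7a1. Along the axis Bhmt ran from -0.15 to 0.16 and Dmgdh from -0.018 to 0.11, and the interaction from -0.15 to 0.0046 for Bhmt2 and -0.24 to 0.16 for Dmgdh. Differences in thinned share ran from -0.887 to 7.97 points for Sardh and -0.177 to 6.62 for Chdh. The cause was not tested. A fit with 1 library left in a group assumes that it varies like the others.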

Other observations

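Of 6 genes of lysine breakdown, the pathway Aldh7a1 shares, 3 were higher and 3 lower in the hepatocyte-like nuclei of KO-labelled libraries, none passed, and the median log2 difference was -0.06. The 3 of smallest p were Gcdh (113 and 148 CPM against 125 and 83.9), Aadat (162 and 163 against 183 and 63.6) and Hykk (396 and 438 against 347 and 379), and the groups overlapped for Gcdh and Aadat. Along the axis 3 of the 6 fell toward the central vein and none rose, beside 13.8% and 12.5% of all genes tested: Crym by 1.08 on the log2 scale, Aass, the first enzyme of the pathway, by 0.56 and Hykk by 0.41.

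A list of genes on either side of Bhmt, Bhmt2 and Dmgdh, which leaves out these 3 and Gm15622, was also read. Of 8 tested, 6 were higher and 2 lower in the KO-labelled libraries, none passed, and the median log2 difference was 0.25. None of the 8 was lower in both KO-labelled libraries than in both WT libraries, an order seen in 19.7% of all genes tested. Arsb, the gene beyond Dmgdh, stood at 50.2 and 37.6 CPM in the WT libraries and at 48.1 and 61.1 in the KO-labelled pair. Jmy, on the other side of Bhmt, stood at 97.3 and 94.2 against 109 and 115, and Scamp1 at 95.4 and 97.0 against 103 and 113. Along the axis Jmy rose by 0.28 on the log2 scale, Mtx3 rose by 0.23 and Homer1 fell by 0.24.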
